A study of Mus musculus with 6 samples.

Results

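Adaptor proteins that bring deadenylases to mRNAs were followed at the mRNA level in fetal hepatocytes that lack a subunit of the deadenylase complex itself. The group was 9 listed genes, the 5 Btg/Tob genes Btg1, Btg2, Btg3, Tob1 and Tob2, the 3 Zfp36 zinc finger genes and Pum2, found as the probe sets whose annotated symbol is one of them. Of the 9 genes, 8 had a probe set that names them alone, with 22 such sets in all, out of 18193 genes with a set of their own. The only set that lists Btg3 also lists Gm7334, so no value is given for Btg3. Every one of the 8 genes passed the filter on dim genes, which kept 16499 genes with an intensity above the 20th percentile of at least 1 array.

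The Cnot complex shortens the poly(A) tail of mRNAs, which opens the way to their decay, and Cnot3 is one of its non-catalytic subunits. The complex has little choice of its own, and adaptors bring it to particular mRNAs. Btg and Tob proteins bind the catalytic subunits through a shared domain, and Tob proteins also bind the cytoplasmic poly(A)-binding protein. Zfp36, Zfp36l1 and Zfp36l2 bind AU-rich elements through paired zinc fingers, and Pumilio proteins bind a short UGUA-containing element through a repeat domain. Several of these adaptors are themselves encoded by short-lived mRNAs that respond quickly to growth factors, stress or DNA damage.

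Fetal hepatocytes came from Cnot3KO and control embryos at E16.5. In the Cnot3KO embryos a floxed Cnot3 allele was deleted by Cre recombinase under the albumin promoter, so cells that do not use this promoter were not targeted. Controls are labelled wild type, and in the study they could carry floxed alleles without Cre, or Cre with at most a single floxed allele. Cells of both genotypes were grown with oncostatin M and dexamethasone, and RNA was taken after 0, 6 or 12 h of ActD (actinomycin D), which blocks transcription. Each genotype and time had 1 array, 6 in all, and whether embryos were pooled is not given in the sources used here. Values are intensities on a linear scale from the Robust Multi-array Average (RMA), and differences are given as log2. Because RMA equalises the arrays, each value is relative to the rest of the mRNAs measured, so "lower at 12 h" means lower relative to the rest.

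The array median lay between 69.7 and 72.4 and the 20th percentile between 19.7 and 22.4. The brighter of the sets for Cnot3 read 174, 174 and 146 at 0, 6 and 12 h in Cnot3KO cells, against 296, 214 and 158 in control cells, which is 1.70-fold lower before ActD. The other Cnot3 set differed by -0.05 (log2) before ActD, and whether either set lies in the deleted part was not tested. All 9 hepatocyte markers with a set of their own were above the median of every array, and their median difference before ActD was -0.06 (log2). Macrophage markers were also present, and their summed intensity was 16806 to 20036 in Cnot3KO cells and 20578 to 24953 in control cells. In such bulk samples fewer cells of a type and less RNA per cell cannot be told apart.

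The bases upstream of Btg1, Btg2 and Tob1, as listed by RefSeq on GRCm38.p6, are shown as examples of Btg/Tob genes that had more mRNA in Cnot3KO cells under ActD and differed in the shape of their course, and were chosen after their values were seen. Each stretch is the 250 bases before the annotated start, read 5′ to 3′ on the gene's strand, at chr10:96616751-96617000 on the plus strand for Btg1, chr1:134079156-134079405 on the minus strand for Btg2 and chr11:94211204-94211453 on the plus strand for Tob1. Capitals mark matches to the motifs searched.
Btg1: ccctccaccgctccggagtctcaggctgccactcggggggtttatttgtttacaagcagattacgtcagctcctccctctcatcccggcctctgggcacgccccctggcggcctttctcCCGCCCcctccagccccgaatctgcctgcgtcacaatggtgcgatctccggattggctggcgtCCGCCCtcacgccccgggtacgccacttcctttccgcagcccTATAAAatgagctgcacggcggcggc
Btg2: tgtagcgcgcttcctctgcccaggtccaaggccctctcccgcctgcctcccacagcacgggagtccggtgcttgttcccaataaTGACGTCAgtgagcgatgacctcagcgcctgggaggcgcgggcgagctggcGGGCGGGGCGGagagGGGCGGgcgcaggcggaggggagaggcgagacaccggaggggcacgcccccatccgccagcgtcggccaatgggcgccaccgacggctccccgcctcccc
Tob1: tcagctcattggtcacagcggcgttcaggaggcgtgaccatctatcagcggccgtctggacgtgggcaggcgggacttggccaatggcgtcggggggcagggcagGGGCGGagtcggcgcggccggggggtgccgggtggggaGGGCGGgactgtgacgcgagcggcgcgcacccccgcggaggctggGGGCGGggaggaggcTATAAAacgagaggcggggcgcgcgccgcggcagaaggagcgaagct
The 8 motifs, each searched on both strands, were the TATA box as TATAAA, the GC box as GGGCGG, the full cAMP response element as TGACGTCA, the AP-1 site as TGANTCA, the E-box as CACGTG, the STAT site as TTCNNNGAA, the CArG box and the p53 half-site. The TATA box began 26 bases before the start in Btg1 and 47 bases before it in Tob1, and 12.4% of all 32851 upstream windows of this length held it. The full cAMP response element began 166 bases before the start in Btg2, and 1.55% of the windows held it. The GC box matched at 2 places in Btg1 and at 3 each in Btg2 and Tob1, where the first 2 matches of Btg2 overlap by 1 base, and 32.7% of the windows held it. The p53 half-site, found in 7.13% of the windows, did not match in these 3 stretches. A match is a description of the letters and not of a bound site. The window of Zfp36 held a CArG box, a STAT site and a GC box, and that of Zfp36l1 held a TATA box and an AP-1 site. Windows were listed for 8 of the 9 genes, and Zfp36l2 had no entry.

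Before ActD, Cnot3KO and control cells had similar levels of most of the 8 mRNAs, and the Zfp36l1 and Zfp36l2 mRNAs were the lowest relative to control. Zfp36l2, a zinc finger protein known for its part in blood cell development, read 952 in Cnot3KO cells and 1438 in control cells, 1.51-fold lower (log2 difference -0.60). Zfp36l1, which in liver is known to bind the mRNA of the bile acid enzyme Cyp7a1, read 3708 in Cnot3KO cells and 5187 in control cells, a difference of -0.48. Only Zfp36l2 was past 1.5-fold, on an array pair where 2.92% of all genes were lower and 6.71% higher by that much. None of the 8 was over 1.5-fold higher. The most positive was Tob1, at 0.32, and Btg2 (0.14), Btg1 (0.13), Pum2 (0.09), Tob2 (-0.04) and Zfp36 (-0.04) lay nearer to 0.

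These differences can be set against the spread between probe sets of the same gene, 0.24 (SD, log2, over 4117 genes) before ActD. The differences of Zfp36l1, Zfp36l2 and Tob1 were larger than this spread and those of Btg1, Btg2, Tob2, Zfp36 and Pum2 smaller. The second set of Zfp36l1 gave -0.25, in the same direction. The other sets of Zfp36l2, with intensities near 100, gave -0.07 and 0.33, so its lower level rests on the brightest set. For Btg1 the other 2 sets gave -0.42 and -0.38, opposite in direction to the brightest. The markers of other cells also differed between these arrays, with medians of -0.43 over 13 macrophage genes, -0.52 over 8 endothelial genes and 0.89 over 6 cholangiocyte genes, and their part in the Zfp36l1 and Zfp36l2 values was not tested. No test was made of the 0 h arrays by themselves, with 1 array per genotype.

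Under ActD the Btg/Tob mRNAs parted by genotype. Btg1 encodes an antiproliferative protein that is abundant in quiescent cells. Btg1 read 7051, 6137 and 9569 at 0, 6 and 12 h in Cnot3KO cells, against 6428, 1570 and 2197 in control cells. The control array at 0 h lay among the Cnot3KO arrays, and both ActD arrays of the control were below all of them. Relative to 0 h, 136% of the Btg1 mRNA was left at 12 h in Cnot3KO cells and 34.2% in control cells. At 12 h Btg1 was 4.36-fold higher in Cnot3KO cells. The difference in change over 12 h was 1.99 ± 0.93 (log2, SE; adjusted p = 0.322, limma), which did not pass the test. A second bright set gave 1.48, while the dimmest set, with intensities of 151 to 424, was higher under ActD in both genotypes and gave -0.60.

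Btg2, also known as a p53-induced and growth factor-induced gene, had another shape. It read 1555, 3430 and 6465 in Cnot3KO cells, against 1408, 1851 and 1871 in control cells. The Cnot3KO values were higher at each later time, both ActD arrays above every control array, and the control values stayed within 1.33-fold of the 0 h array. The 12 h array of the Cnot3KO cells was 4.16-fold above its 0 h array, rank 31 of 16499 genes by change in these cells. The difference in change over 12 h was 1.65 ± 0.31, with an unadjusted p of 0.00197 and an adjusted p of 0.179 (limma).

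The second Btg2 set shared the Cnot3KO pattern and not the control one. It read 777, 1444 and 3264 in Cnot3KO cells, against 789, 347 and 455 in control cells. Both sets were over 4-fold higher at 12 h than at 0 h in Cnot3KO cells, but in control cells the first was 1.33-fold higher and the second 1.74-fold lower. The difference in change over 12 h was therefore 2.87 by this set. By both sets Btg2 was closer between the genotypes before ActD (0.14 and -0.02) than after it.

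Tob1, a Tob protein that joins Cnot to poly(A)-binding protein, read 4269, 5187 and 6486 in Cnot3KO cells, against 3420, 2170 and 3082 in control cells. All 3 Cnot3KO arrays were above all 3 control arrays. By the brightest sets, Tob1 was the only member whose ActD arrays were both above 0 h in Cnot3KO cells and both below it in control cells, a pattern that 6.24% of all genes showed. It was 2.39-fold higher at 6 h and 2.10-fold higher at 12 h in Cnot3KO cells, and its difference in change over 12 h was 0.75 ± 0.48 (adjusted p = 0.435, limma). The second Tob1 set, with intensities of 59.3 to 108, gave 0.13.

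Tob2, the second Tob protein, followed Btg1 in shape by its brightest set. It read 817, 710 and 951 in Cnot3KO cells, against 840, 317 and 354 in control cells. The control array at 0 h lay among the Cnot3KO arrays, and both ActD arrays of the control were the lowest of the 6. At 12 h 116% of Tob2 was left in Cnot3KO cells and 42.1% in control cells, and the difference in change was 1.47 ± 0.63 (adjusted p = 0.294, limma). The other 4 Tob2 sets gave 1.35, 0.72, 0.08 and -0.38, so the size of the Tob2 difference depends on the set. With shared-sequence probe sets left out the difference was 0.72.

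**Figure D1:**
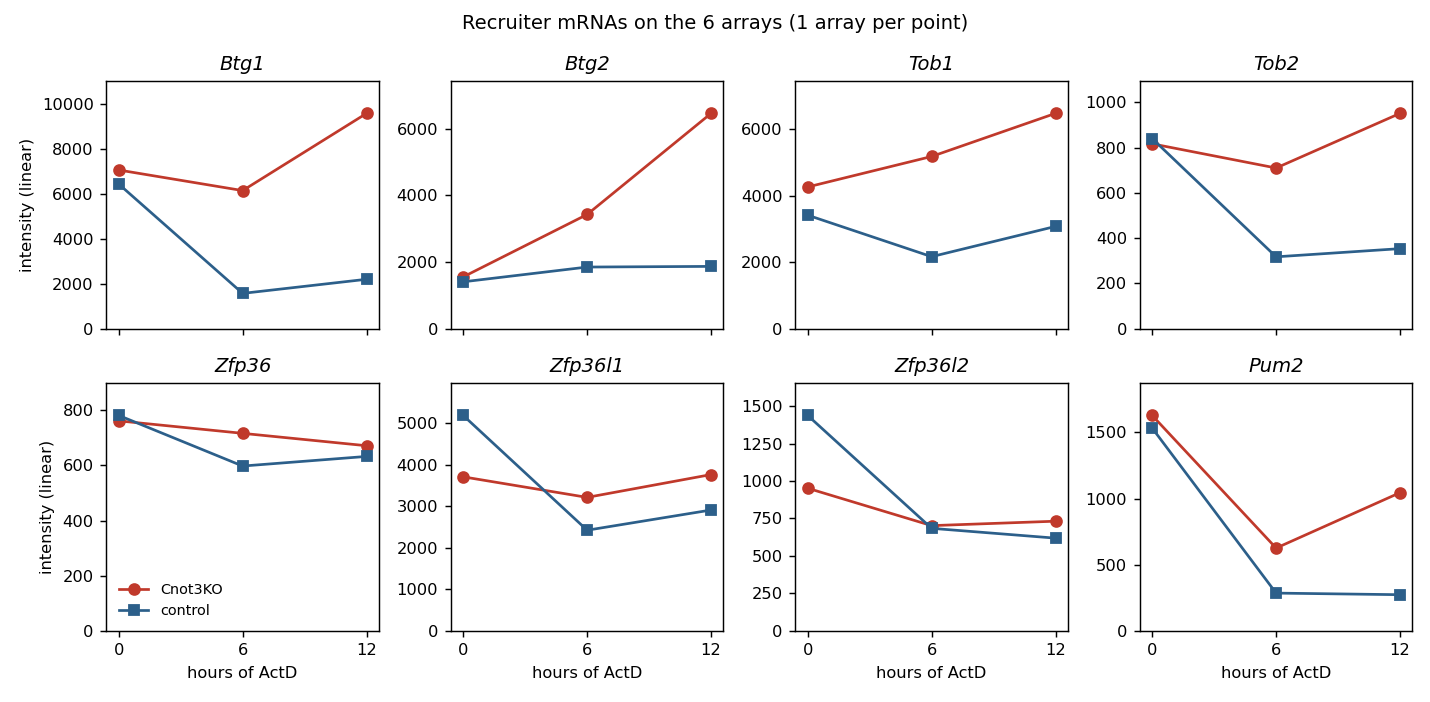
Intensity (linear axis from 0) of the 8 mRNAs against hours of ActD, with Cnot3KO cells as red circles and control cells as blue squares, 1 array per point and no error bars. Btg1, Btg2, Tob1, Tob2 and Pum2 lie over 1.5-fold higher in Cnot3KO cells at 6 and 12 h, while Zfp36, Zfp36l1 and Zfp36l2 differ by at most 1.33-fold between the genotypes at those times.

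Zfp36, known as tristetraprolin, binds the AU-rich elements of cytokine mRNAs and had the flattest profile of all. It read 762, 717 and 672 in Cnot3KO cells, against 782, 598 and 633 in control cells. The genotypes overlapped, and the difference in change over 12 h was 0.12 ± 0.32 (adjusted p = 0.863, limma). Zfp36 has 1 probe set, so no second set could be compared.

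Zfp36l1 read 3708, 3213 and 3762 in Cnot3KO cells, against 5187, 2422 and 2909 in control cells. The Cnot3KO values lay within 1.17-fold of each other, and the control had both the highest array, at 0 h, and the lowest, at 6 h. The difference in change was 0.86 ± 0.55 (adjusted p = 0.443, limma), and the second set gave 0.75. At 12 h the mRNA was 1.29-fold higher in Cnot3KO cells, the difference in change being made up in part of the lower level at 0 h.

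Zfp36l2 read 952, 702 and 732 in Cnot3KO cells, against 1438, 684 and 618 in control cells. Its ActD arrays were within 1.18-fold of each other between the genotypes at each time, so the difference in change of 0.84 ± 0.45 (adjusted p = 0.367, limma) came mostly from the 0 h arrays. The 2 dimmer sets gave -0.34 and -0.39, the opposite direction.

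Pum2, which represses mRNAs through Pumilio elements, had the smallest share left in both genotypes. It read 1628, 625 and 1044 in Cnot3KO cells, against 1533, 285 and 273 in control cells. Control cells kept 17.8% of the 0 h level at 12 h and Cnot3KO cells 64.1%. The Cnot3KO array at 6 h held 38.4%, less than at 12 h, and Pum2 was the only member over 1.5-fold lower at 12 h than at 0 h in Cnot3KO cells. The difference in change was 1.85 ± 1.10 (adjusted p = 0.411, limma), and the other 3 sets gave 2.43, 0.65 and 0.72, all in the same direction, the last from a set below the median of every array.

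**Figure D2:**
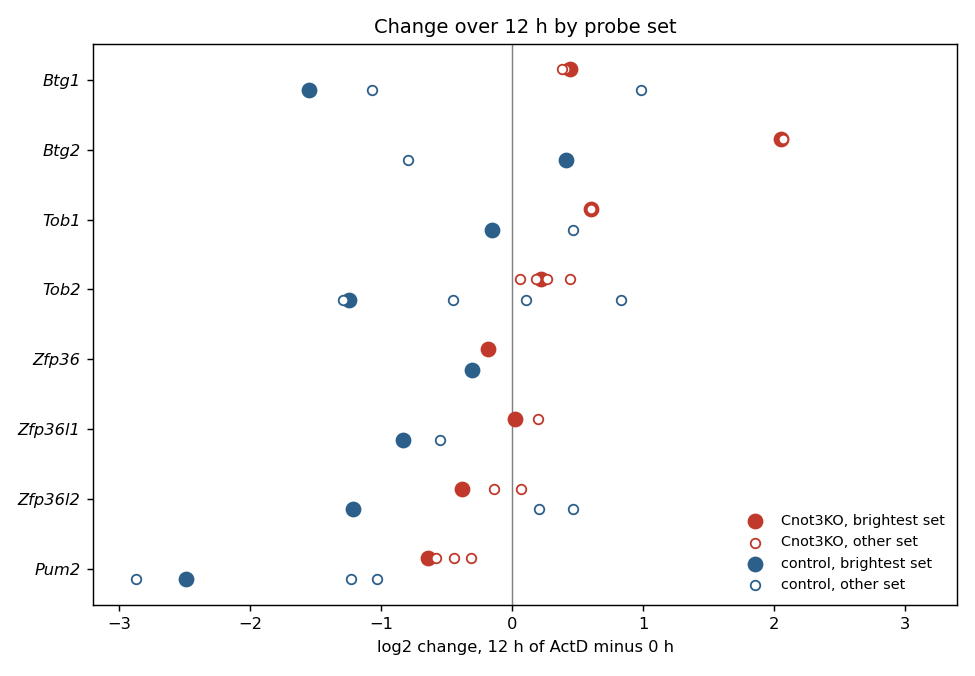
Log2 change from 0 to 12 h of ActD for every probe set that names a member alone, Cnot3KO in red above control in blue, with the brightest set of each gene filled and the others open. The control points of Btg1, Btg2, Tob1, Tob2 and Zfp36l2 lie on both sides of 0, as when Btg2 gave 0.41 and -0.80, while the Cnot3KO points of Btg1, Btg2, Tob1 and Tob2 are all above 0.

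Most of these mRNAs were over 1.5-fold below their 0 h level after ActD in control cells, and fewer were in Cnot3KO cells. In control cells 6 of the 8 were over 1.5-fold lower at 6 h than at 0 h (15.7% of all genes) and 5 at 12 h (23.2% of all genes). In Cnot3KO cells 1 of the 8, Pum2, was that much lower at 12 h (10.5% of all genes), and 2, Btg2 and Tob1, were that much higher (9.72% of all genes). The median change over 12 h was 0.12 in Cnot3KO cells and -1.03 in control cells (log2), against 0.08 and 0.15 over all genes. At 6 h the median change was -0.20 in Cnot3KO cells, where 2 of the 8 were above 0 h (56.4% of all genes), and -1.09 in control cells, where 1 was (61.5% of all genes). Between 6 and 12 h, 7 of the 8 had a higher value at 12 h in Cnot3KO cells (57.2% of all genes) and 6 in control cells (48.3% of all genes).

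Set side by side, Cnot3KO cells had over 1.5-fold more mRNA than control cells for 0 of the 8 at 0 h, for 5 at 6 h (17.8% of all genes) and for 5 at 12 h (27.4% of all genes). The same 5 members, Btg1, Btg2, Tob1, Tob2 and Pum2, were higher at both times, and the 3 Zfp36 genes at neither. By fold at 12 h the order was Btg1 (4.36), Pum2 (3.83), Btg2 (3.46), Tob2 (2.69), Tob1 (2.10), Zfp36l1 (1.29), Zfp36l2 (1.18) and Zfp36 (1.06). The spread between probe sets of a gene at that time was 0.50 (SD of a single set, log2). A step between neighbours in this order carries the spread of both sets, so the steps were not judged by it.

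The difference in change over 12 h was above 0 in 8 of the 8 members (7 with the arrays centred on Gapdh, where Zfp36 had -0.09, and 7 with shared-sequence probe sets left out, where Btg1 had -0.60), and above 0 in 47.1% of all genes. It was over 1.5-fold in 7 of the 8, all but Zfp36, and in 22.9% of all genes. The median over the members was 1.16, against -0.04 over all genes, whose 5th and 95th percentiles were -0.81 and 1.55. Btg1, Btg2 and Pum2 lay beyond the 95th percentile. None of the 8 passed the test of the difference in decay after adjustment, and 0% of all genes did, while at an unadjusted p under 0.05 1 member, Btg2, was higher in Cnot3KO cells, as were 12.8% of all genes. Which member is under 0.05 depends on the model. With the 6 and 12 h arrays pooled against 0 h, unadjusted p was 0.00797 for Btg1, 0.0108 for Tob2, 0.0212 for Pum2, 0.0425 for Zfp36l1 and 0.0678 for Btg2 (limma). In that fit 1431 of all genes were under 0.05 in either direction and 0 passed after adjustment.

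**Figure D3:**
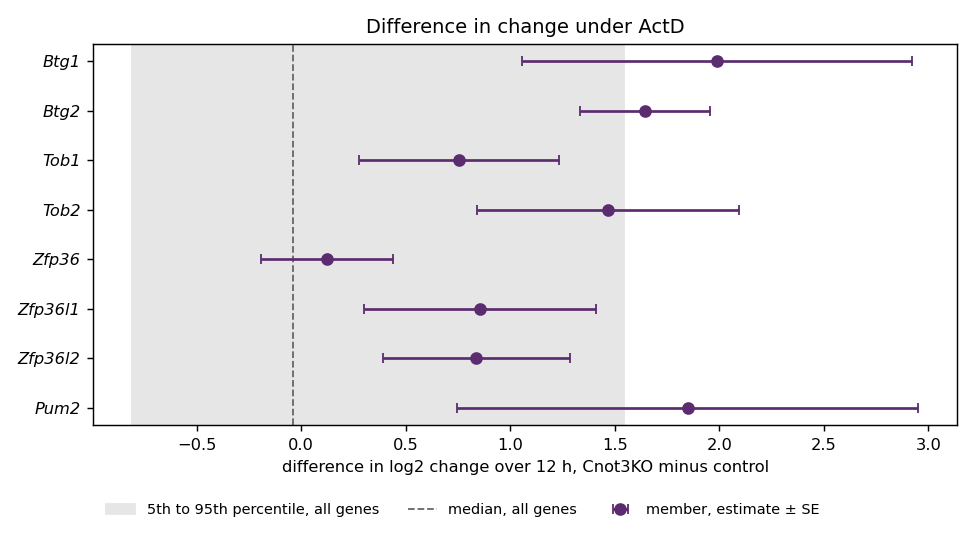
Difference in log2 change over 12 h of ActD, Cnot3KO minus control, for each member (point, limma estimate over 6 arrays; bar, SE), with the 5th to 95th percentile of all genes shaded and their median dashed. The points run from 0.12 for Zfp36 to 1.99 for Btg1, and the bar of Btg2 is the shortest of those above 1.

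The genotype difference taken over all 3 times was tested with time as a factor in limma, where a p-value measures how alike the difference was at the 3 times and not the spread between embryos. None of the 8 passed after adjustment, against 0.703% of all genes called higher in Cnot3KO cells. That share depends on the setting, with 0 genes called without the filter on dim genes and 2639 in either direction centred on Gapdh. At an unadjusted p under 0.05 5 members were higher, Btg1, Btg2, Tob1, Tob2 and Pum2, and so were 22.4% of all genes. Tob1, with a difference of 0.88 ± 0.22 and an adjusted p of 0.0647, came nearest, followed by Btg1 at 1.41 ± 0.40 (adjusted p = 0.0798) and Pum2 at 1.05 ± 0.34 (adjusted p = 0.0997). With only the 6 and 12 h arrays, the same 5 passed, with adjusted p between 2.96e-06 for Btg1 and 0.000284 for Btg2, in a fit that called 5810 genes in either direction. That limma fit had fewer residual degrees of freedom than the one with all arrays, and leaned more on the variance shared over genes. Its p-values measure only how alike the differences at 6 and 12 h were.

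The change at 12 h of ActD over both genotypes was not called for any member, while 6.76% of all genes were called in either direction. Pum2, at -1.57 ± 0.42 (adjusted p = 0.0800), and Btg2, at 1.23 ± 0.38 (adjusted p = 0.105), had the largest sizes.

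Half-lives were read from the slope of log2 intensity over the 3 times and are relative to the other mRNAs. With evenly spaced times this slope is set by the 0 and 12 h arrays, and the 6 h array has no weight in it. In control cells they ran in the order Pum2 (4.82 h), Btg1 (7.75 h), Tob2 (9.62 h), Zfp36l2 (9.86 h), Zfp36l1 (14.4 h), Zfp36 (39.4 h) and Tob1 (79.9 h). There Btg2 had no net loss by its brightest set, while its second set was 1.74-fold lower at 12 h. In Cnot3KO cells Pum2 had 18.7 h, Zfp36l2 31.6 h and Zfp36 66.0 h, and the slopes of the other 5 were not below 0. Of the 8 members, 4 were reduced at least 2-fold over 12 h in control cells, Btg1, Tob2, Zfp36l2 and Pum2. All 4 had a half-life over 2-fold longer in Cnot3KO cells or no loss there. Both conditions together were met by 11.4% of all 16499 genes, whether reduced in control cells or not. The share among reduced genes alone was not taken. The values for Tob1 and Zfp36 are longer than the 12 h course and only say that the 12 h level was not far below that at 0 h. Tob1 in control cells had 63.4% left at 6 h and 90.1% at 12 h, and Btg1 24.4% and 34.2%.

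Likeness among the members was measured as the root mean square of the log2 differences over the 6 arrays, with each profile set to 0 at control 0 h, and smaller is more alike. Zfp36l1 and Zfp36l2 were the closest pair of members, at 0.30, followed by Btg1 and Tob2 at 0.34. Btg2 and Pum2 were the farthest apart, at 2.26. Over all 8241 brighter genes, the nearest to Btg1 were Sgk1, a kinase gene induced by glucocorticoids, at 0.18, and Rnf146, a ubiquitin ligase gene, at 0.18. Nearest to Btg2 were Phlda3, a p53 target gene, at 0.19, and Snx20 at 0.20. Phlda3 read 598, 1215 and 1706 in Cnot3KO cells, against 470, 584 and 548 in control cells, climbing in the first and level in the second as the brightest Btg2 set did.

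Pum2 was most like Foxo3, a forkhead transcription factor gene (0.12), and Nfe2l2, which encodes the oxidative stress regulator Nrf2 (0.14). Foxo3 read 620, 238 and 331 in Cnot3KO cells, against 579, 116 and 98.6 in control cells, low at 6 h in both genotypes as Pum2 was. Tob1 was most like Tcim (0.07) and Caml (0.09), Tob2 like Fbxl5 (0.07) and Rnf103 (0.08), and Zfp36 like Pnpla8 (0.07) and Dsp (0.07). Zfp36l1 was nearest to Rbm26 (0.12) and Zfp871 (0.14), and Zfp36l2 to Sppl3 (0.12) and Glul (0.12), the glutamine synthetase gene. These values describe 6 shared arrays and carry no test.

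Other adaptors did not share one pattern. Of 16 other recruiters measured, the difference in change over 12 h passed 1.5-fold upwards in 5 and downwards in 2, where 22.9% of all genes passed it upwards, and its median was 0.13, against -0.04 over all genes. The share of all genes that passed it downwards was not taken, here or for the lists that follow. Cpeb2 and Cpeb4, which bind cytoplasmic polyadenylation elements, had differences of 2.60 and 1.35, and Tnrc6a, the scaffold that joins Argonaute to Cnot, 1.16. Bicc1, another RNA-binding protein that recruits Cnot, had -1.07. None of the 16 passed the test of genotype or of decay.

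Subunits of Cnot and of other deadenylases, with the poly(A)-binding proteins, were nearer to the Btg/Tob values. Of 15 measured, 9 passed 1.5-fold upwards in this difference (22.9% of all genes) and 1 downwards, and the median was 0.84. Both the 9 and the median include the deleted gene itself, Cnot3, at 0.66. Its level before ActD differed by -0.77 (log2) in Cnot3KO cells. Cnot7, a catalytic subunit that Btg and Tob proteins bind, had 1.61, Cnot8, another catalytic subunit, 1.01, and Cnot4, a ubiquitin ligase subunit, 2.53. Pabpc4, a poly(A)-binding protein, was the one that was lower, at -0.98, and is named here after its value was seen. Among 9 kinases, phosphatase and other partners of the members 4 passed it upwards (22.9% of all genes) and 0 downwards. Their median was 0.29, and the lowest value was that of Prmt1, at -0.33. Those that passed included Ppp2ca, the catalytic subunit of the phosphatase that acts on Zfp36, at 2.15, and Mapk14, the p38 kinase upstream of Zfp36 phosphorylation, at 1.33.

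Genes reported as targets gave mixed values. Of 24 AU-rich targets of Zfp36 proteins 9 passed 1.5-fold upwards in the difference in change and 2 downwards, with a median of 0.27, where 22.9% of all genes passed it upwards, and Socs3, a cytokine signalling inhibitor, had 1.79. Ptgs2, which encodes the inducible cyclooxygenase, was the 1 that passed the genotype test over 3 times, higher in Cnot3KO cells. Its adjusted p was 0.0499 (limma), just under the threshold. It read 61.2, 129 and 176 in Cnot3KO cells, against 16.8, 42.0 and 52.1 in control cells. The control value at 0 h was below the 20th percentile of that array, 19.9. Of 4 measured Pumilio targets 3 passed 1.5-fold upwards in the difference in change (22.9% of all genes), with a median of 1.66. These were Dusp6, a MAP kinase phosphatase, at 2.44, E2f3 at 2.02 and Cdkn1b at 1.30. The remaining target, Atxn1, went the other way, at -0.52. The study design cannot tell the effect of an adaptor's level from that of the missing Cnot3 on such targets.

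The lists that Btg2 and Btg1 are often placed in, immediate early genes and p53 target genes, held higher values in Cnot3KO cells at 12 h. Of 31 immediate early genes 20 exceeded control by over 1.5-fold in Cnot3KO cells (27.4% of all genes) and 0 fell short by that much. The median difference of this list was 1.001, against -0.03 over all genes. Of 17 p53 target genes 14 were over 1.5-fold higher and 0 lower by that much, with a median of 1.03. The share of all genes that fell short was not taken, and the 5th percentile of all genes was -0.91 (log2). Mdm2, the p53 ubiquitin ligase gene, had 2.93, and Plk2 1.82. The median change over 12 h of the p53 targets was 0.99 in Cnot3KO cells and 0.29 in control cells. In the genotype test over 3 times 2 genes of each list passed and were higher, Fosl1 and Klf4 among the immediate early genes, and Cdkn1a and Bbc3 among the p53 targets. Their adjusted p was just under the threshold, 0.0499 for Fosl1, Cdkn1a and Bbc3 and 0.04998 for Klf4 (limma). Of all genes this test called 163 as reported. It called 0 with no filter on dim genes, a filter at the 50th percentile, ribosomal protein centring or a floor. It called 1625 with probe sets averaged, 811 with shared-sequence sets left out and 2639 centred on Gapdh.

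**Figure D4:**
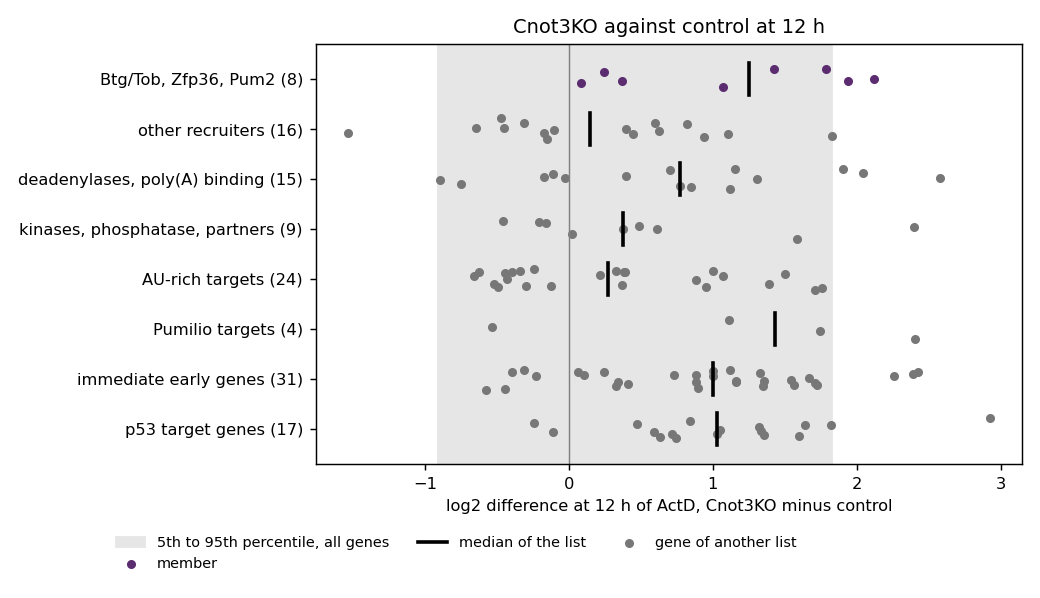
Log2 difference between Cnot3KO and control cells at 12 h of ActD for the members (purple) and for the genes of each list (grey), with the number of genes in brackets, the list median as a bar and the 5th to 95th percentile of all genes shaded. The members have a median of 1.25 and the other recruiters one of 0.15, and vertical scatter within a row has no meaning.

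Markers of other cells moved in their own way under ActD. The median difference in change over 12 h was 0.08 for 13 macrophage markers, 0.05 for 9 hepatocyte markers, 0.25 for 6 cholangiocyte markers, -0.77 for 8 stellate and fibroblast markers and -0.78 for 4 megakaryocyte markers. Summed stellate and fibroblast markers were 8678 to 13798 in Cnot3KO cells and 17488 to 18679 in control cells, with Lrat not above the 20th percentile on any array. Cholangiocyte markers summed to 34110 to 41341 in Cnot3KO cells and 19421 to 22716 in control cells. Their part in the values of the members was not tested.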

How the data were processed

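Total RNA of fetal hepatocytes was hybridised to 6 Affymetrix arrays whose probes lie towards the 3′ end of mRNAs, and groups were taken from the labels. The authors summarised the probes with RMA (software and version not given in the sources used here), and the deposited values are intensities on a linear scale. A loss common to every mRNA leaves no trace in them. Of 45037 probe sets, 34945 carried 1 symbol in the platform annotation, 932 several and 9160 none. Here log2 of the deposited intensity was taken, each gene was given the set that names it alone with the highest mean, and genes not above the 20th percentile of any array were left out. Tests used limma 3.58.1 in R 4.3.3 (lmFit and eBayes, Benjamini-Hochberg over all 16499 genes, threshold 0.05, 2 residual degrees of freedom), with genotype and time as a factor, or genotype, hours and their product for decay. The fit was tested on simulated data, and runs with a time left out had fewer residual degrees of freedom. With 6 arrays and no replicate at a time, p-values do not measure the spread between embryos, and precision is limited by this number. Named genes were all members, the 2 genes nearest to each, and up to 4 genes of each list with the largest differences. Other probe sets, filters, centring and times left out were tried as alternatives. Members and lists were chosen with earlier results of these data known, and the promoter motifs after the sequences were seen.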

Additional observations from a re-analysis of the deposited data

Results flagged for a closer look

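In 4 probe sets both ActD arrays lay above the 0 h array in one genotype and below it in the other, a difference between the genotypes that was not tested by this pattern itself. With 1 array at each point, the 2 ActD arrays share their 0 h array. Tob1 showed it by its brightest set, with a difference in change over 12 h of 0.75. Btg2 showed it by its second set, at 2.87, with changes at 6 and 12 h of 0.89 and 2.07 in Cnot3KO cells and -1.18 and -0.80 in control cells. Btg1 showed it by its second bright set, at 1.48, where the 6 h change in Cnot3KO cells was 0.01. A dim set of Zfp36l2 showed it the other way round, at -0.34, with changes of -0.18 and -0.14 in Cnot3KO cells and 0.18 and 0.20 in control cells.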

How the results depend on the processing

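The count past 1.5-fold before ActD was 1 member, and 0 with all sets of a gene averaged or a threshold of 2-fold. The genotype test called 0 members as reported, 3 with the arrays centred on Gapdh (whose set is shared with pseudogenes) and 5 with the 0 h arrays left out. Over all genes it called 163, 2639 and 5810 in these runs. The change under ActD called 0 as reported, 2 centred on Gapdh and 1 with the 12 h arrays left out, where 1116, 2153 and 878 of all genes were called. The test of decay called 0 members in each alternative run, including the 6 and 12 h arrays pooled against 0 h, which was chosen after seeing the data, and could not be fitted with a time left out. It called 0 of all genes in each run too, so these runs do not set the members apart. Centring on Gapdh moved the median difference in decay of all genes to -0.25, against -0.04 as reported, and ribosomal protein genes moved the median ActD change to -0.01, against 0.12. Of 64 alternatives for the members' difference in change, other probe sets aside, 62 kept the direction. Many of these could not reverse it, because the filters and the floor left the members' estimates unchanged. Of 14 other probe sets, 4 reversed it. The directions that reversed by genotype over 3 times were, by dimmer probe sets, Btg1 (-0.65, also with shared-sequence sets left out) and Tob2 (-0.085 and -0.36), centred on Gapdh, Zfp36 (-0.0091) and Zfp36l1 (-0.014), and with times left out, Zfp36l1 (-0.057 without 6 h, -0.038 without 12 h) and Zfp36l2 (0.14 without 0 h). For the change at 12 h of ActD, Btg1 (0.68), Tob2 (0.14 and 0.64) and Zfp36l2 (0.032 and 0.27) reversed by dimmer sets, Btg1 (0.56), Tob2 (0.29), Zfp36l1 (0.25) and Pum2 (0.34) without the 0 h arrays, when the change is that between 6 and 12 h, and Tob1 (-0.19) without the 12 h arrays. For the difference in change, Btg1 (-0.60), Tob2 (-0.38) and Zfp36l2 (-0.34 and -0.39) reversed by dimmer sets and Zfp36 (-0.092) centred on Gapdh, and before ActD a dim Zfp36l2 set gave 0.33. The cause of the probe set differences was not tested.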
